A study of Rattus norvegicus with 12 samples.

Results

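The genes that make, break down and bind hyaluronan were followed in the rat cervix on the day before birth and before pregnancy, with and without its macrophages (Mφs). The 10 members were Has1, Has2, Has3, Ugdh, Hyal1, Hyal2, Cd44, Hmmr, Vcan and Tnfaip6. They were chosen by name, as every probe whose gene name in the array files equals a member, which gave 15 of 30367 probes and 10 of 26612 genes. RNA came from adult female Sprague Dawley rats, 3 in each of 4 groups with 1 rat on each array: whole cervix of nonpregnant rats in proestrus (NP rats 8, 9 and 10), whole cervix of pregnant rats on day 21 after breeding (D21 rats 5, 6 and 7), Mφ-depleted cervix of other NP rats (5, 6 and 7) and Mφ-depleted cervix of other D21 rats (1, 2 and 4). All rats were perfused with warm saline and had the cervix dispersed with collagenase B and DNAase. From the depleted groups, cells that bound the Mφ antibody ED1 were then drawn off with magnetic beads, while the whole groups went to the freezer with no antibody or beads. No agent or genetic change was used, and depleted and whole cells came from different animals. The effect of taking out Mφs and that of the extra handling therefore cannot be told apart.

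Hyaluronan is a long, unbranched sugar chain of the extracellular matrix. The hyaluronan synthases Has1, Has2 and Has3 spin it out at the cell surface from UDP-sugars, of which Ugdh makes the glucuronic acid donor, and the hyaluronidases Hyal1 and Hyal2 cut it. Long chains hold water and space out collagen in the softening cervix, short fragments act on immune cells, and Cd44, Hmmr, the proteoglycan versican (Vcan) and the cross-linking protein Tnfaip6 bind the chain.

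Levels are given as the log2 intensity of a probe over its array's 75th percentile, so that 0 is that percentile. Each probe has its own response, so a level of one probe is not set against that of another. The lowest level that the scanner software rated as well above background on an array lay between -5.35 and -2.93. The share of probes that reached this ranged from 44.9% to 61.8% over the arrays. Where no array of the lower group was well above background, a floored fold is given. For it, readings of that group were raised to the lowest level rated well above background on their array, where they lay under it. That level is the lowest of any probe on the array, so the floored fold is not a strict lower bound for the probe in question. Has3 and Hmmr were not well above background on any of the 12 arrays, and Has2 was on 6 arrays. A gene was tested with limma where at least 1 group of a comparison had it well above background in each of its 3 rats. It was called changed at the threshold of the study's methods, an unadjusted p under 0.01 with at least a 2-fold difference, and Benjamini-Hochberg adjusted p-values over all genes are given beside it. Each p rests on 1 spread per gene, shared by the 4 groups of 3 rats. Groups outside a comparison therefore also shape its p and its standard error (SE). For the brightest Vcan probe the SD was 1.91 in NP depleted cervix, against 0.12 in D21 whole and 0.22 in D21 depleted cervix. The comparisons share arrays: the NP whole arrays, for one, stand in both the pregnancy and the depletion comparison of NP rats.

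The cells in the groups were checked against marker genes. The summed level of 15 Mφ markers, on the linear scale over that percentile, was 66.4 to 85.8 in NP whole cervix and 76.8 to 78.7 in D21 whole cervix, against 4.92 to 15.2 and 10.7 to 15.4 after depletion. Of these markers, 4 to 10 were still well above background on an array of depleted cells. In D21 rats 13 of 15 were called higher in whole than in depleted cervix, and in NP rats 11 of 13 tested were. In D21 rats Cd68 (log2 -0.15 ± 0.62, adjusted p = 0.882) and Cd14 (0.26 ± 0.50, adjusted p = 0.733) were not called. The 10 fibroblast markers summed to 553 to 677 in NP and 436 to 649 in D21 whole cervix, 317 to 472 in D21 depleted cervix and 17.3 to 60.03 in NP depleted cervix. Epithelial markers had higher sums in depleted cells, at 485 to 1027 in NP rats and 528 to 737 in D21 rats, against 128.5 to 413 and 236 to 397.5 in whole cervix. Of the 11 immediate-early genes on the array 9 were tested, and 8 of them were lower in whole than in depleted cervix of each kind of rat. In these mixed cells, fewer cells of a type and less RNA per cell cannot be told apart.

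The members' arrays read short stretches of each transcript. Every member probe was 60 bases long and had 1 spot on the array. Hybridised stretches are shown for some of the members whose levels differed between groups and, for Cd44, for the 3 probes that departed from its brightest one. All of these have at least 1 reading frame free of internal stop codons. The position of each is as in the array files, which name a transcript but not an exon.
Has1 probe A_64_P078849, rn4 chr1:56511157-56511216, minus strand: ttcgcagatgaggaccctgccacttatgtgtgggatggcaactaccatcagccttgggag
Hyal1 probe A_64_P102373, rn4 chr8:112826816-112826875, plus strand: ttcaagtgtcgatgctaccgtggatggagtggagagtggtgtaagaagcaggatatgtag
Vcan probe A_44_P158798, rn4 chr2:19714573-19714632, minus strand: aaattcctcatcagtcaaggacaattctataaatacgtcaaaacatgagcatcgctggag
Tnfaip6 probe A_44_P371635, no rn4 position in the array files: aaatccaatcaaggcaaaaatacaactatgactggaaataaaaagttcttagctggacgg
Cd44 probe A_64_P280765, rn4 chr3:88041645-88041704, minus strand: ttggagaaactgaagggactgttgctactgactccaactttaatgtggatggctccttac
Cd44 probe A_64_P130995, rn4 chr3:88052458-88052517, minus strand: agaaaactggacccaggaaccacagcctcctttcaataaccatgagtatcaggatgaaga
Cd44 probe A_64_P130999, rn4 chr3:88055398-88055457, minus strand: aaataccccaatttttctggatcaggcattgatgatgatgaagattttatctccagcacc

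**Figure D1:**
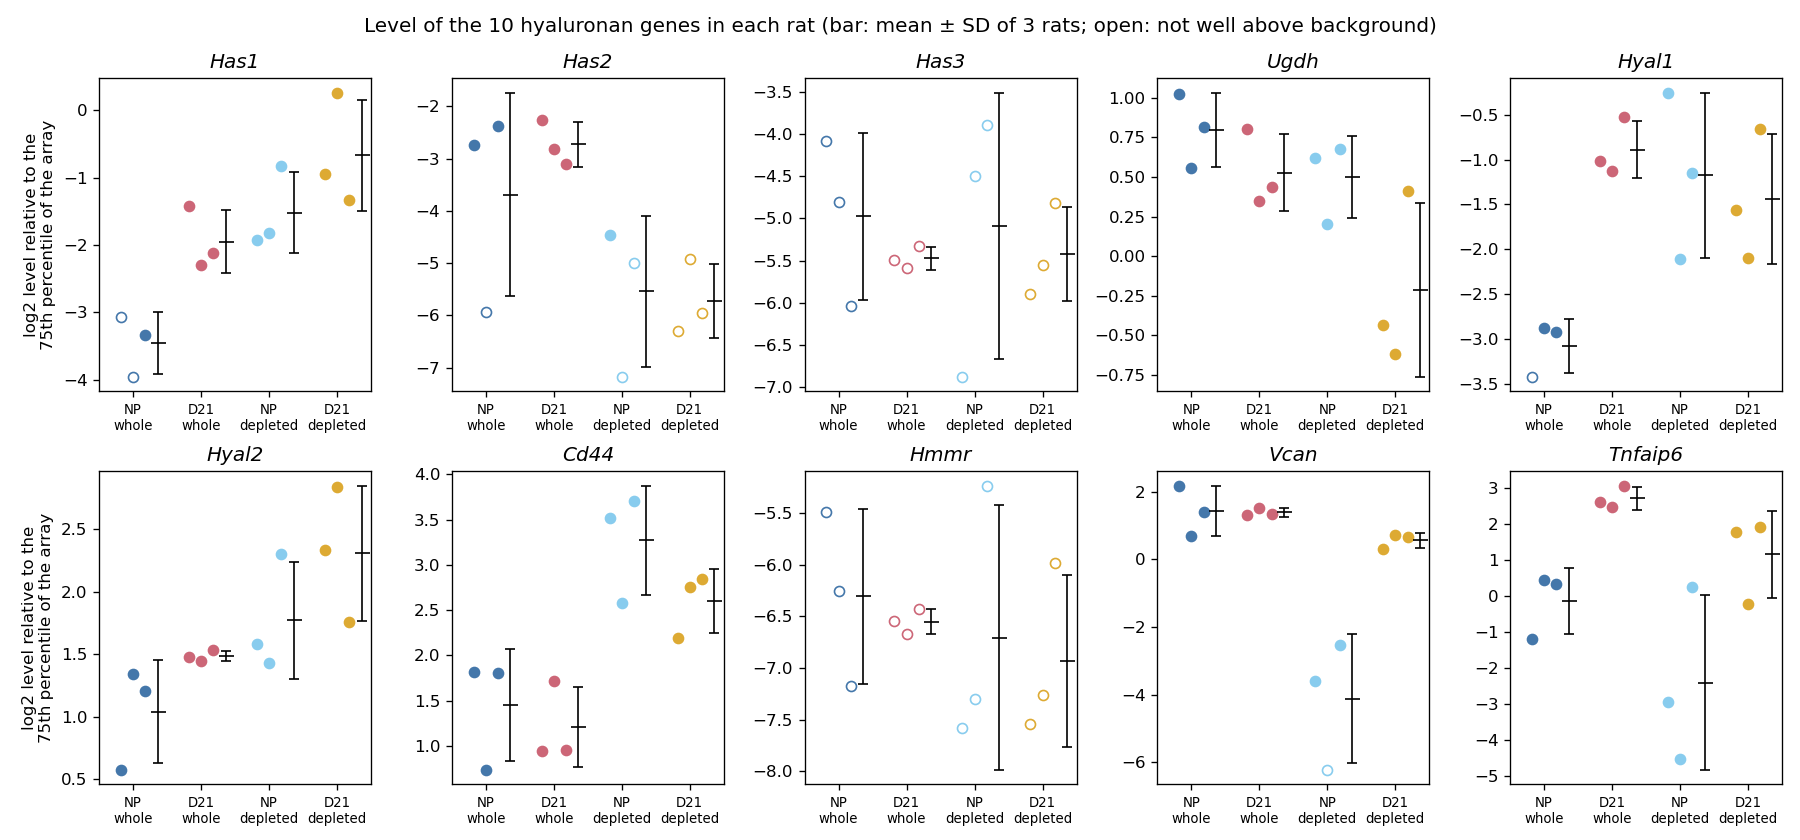
Level of each of the 10 hyaluronan genes in each rat by group. The y axis is the log2 level of the brightest probe over the array's 75th percentile, each point is 1 rat, open points were not well above background, and bars are the mean ± SD of 3 rats. Vcan lay at -2.53 or lower in the 3 NP depleted arrays and above 0 on the other 9, while Has1 and Hyal1 were lowest in the 3 NP whole arrays.

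Expression of the synthase Has1 was 2.85-fold higher in D21 than in NP whole cervix. Has1 read -1.42, -2.30 and -2.12 in D21 rats 5, 6 and 7, and -3.07, -3.96 and -3.33 in NP rats 8, 9 and 10. The groups did not overlap, and only NP rat 10 of the NP rats was well above background, so each fold against NP whole cervix rests on 2 arrays near the background. The log2 difference was 1.51 ± 0.45 (SE, 3 rats against 3; adjusted p = 0.0763). The second Has1 probe, which lies nearer the 5′ end of the gene, read -2.43, -3.92 and -3.92 against -5.24, -5.82 and -4.75. It was well above background on 2 D21 arrays and no NP array, so it was not tested, and its floored fold was 1.45. The Has1 call was lost without NP rat 9 (1.26), NP rat 10 (1.57), D21 rat 5 (1.25) or D21 rat 7 (1.60), with slide as a block (1.49), with a normexp correction of the background (0.77) and by the methods' t-test, the test that the study itself names.

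With its brighter probe, Has1 also read higher in the cells left after Mφ removal, a difference that was called in NP rats only. Mφ-depleted cervix read -1.92, -1.81 and -0.82 in NP rats 5, 6 and 7 and -0.94, 0.26 and -1.32 in D21 rats 1, 2 and 4. In NP rats, whole cervix was lower than depleted cervix by 3.83-fold (log2 -1.94 ± 0.45, adjusted p = 0.00714), without overlap. This call was lost with normexp (-0.74) and by the methods' t-test. In D21 rats the log2 difference was -1.28 ± 0.45 (adjusted p = 0.0626), which missed the threshold. Without D21 depleted rat 4 (-1.61), with quantile normalization (-1.38) and with array weights (-1.23) it passed. Within depleted cervix, D21 and NP rats overlapped and differed by 0.85 ± 0.45 (adjusted p = 0.293). The group means of the brighter probe thus ran, from low to high, NP whole, D21 whole, NP depleted and D21 depleted, and the step between the depleted groups did not pass the test. The step from D21 whole to NP depleted cervix was not compared. The change with removal did not pass the test of a difference between D21 and NP rats (0.66 ± 0.64, adjusted p = 0.605). The second Has1 probe read -4.06, -4.17 and -4.62 in NP depleted cervix and -4.24, -3.40 and -4.03 in D21 depleted cervix. The latter overlapped D21 whole cervix, where the brighter probe did not. For this second probe whole cervix lay above depleted cervix in D21 rats (log2 0.46) and below it in NP rats (-0.98). Neither was tested.

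Has2, the synthase that builds very long chains, was found in whole cervix. It read -2.26, -2.82 and -3.10 in D21 rats, all well above background, and -2.75, -5.93 and -2.39 in NP rats, where rat 9 was not. None of the 3 D21 depleted arrays was well above background (-6.30, -4.93 and -5.96), and of the NP depleted arrays (-4.45, -7.18 and -4.99) only that of rat 5 was. Has2 was higher in whole than in depleted D21 cervix, with a floored fold of 3.83 and a measured log2 difference of 3.00 ± 0.90 (adjusted p = 0.0366). The call stood without D21 depleted rat 2. It was lost without D21 depleted rat 1 (2.71) or 4 (2.88) or D21 whole rat 5 (2.77), 6 (3.04) or 7 (3.19), with quantile normalization (2.81) and when slide (2.70) or scan day (2.90) was a block. With normexp and an offset of 50, which lifts all dim signals towards each other, the difference was 0.25. In whole cervix D21 and NP rats overlapped (0.96 ± 0.90, adjusted p = 0.56), and without NP rat 9 the difference was -0.16. The depletion comparison of NP rats and the comparison within depleted cells had no group with Has2 on all 3 arrays and were not tested.

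Has3, which makes shorter chains, read between -6.88 and -3.89 and was well above background on none of the 12 arrays. No level or change can be given for Has3. Ugdh, which supplies the glucuronic acid donor, was well above background on all 12 arrays. It read 1.02, 0.56 and 0.82 in NP whole cervix, 0.80, 0.35 and 0.43 in D21 whole cervix, 0.62, 0.20 and 0.68 in NP depleted cervix and -0.43, -0.62 and 0.41 in D21 depleted cervix. D21 depleted rats 1 and 2 were the only arrays under 0. No comparison of Ugdh passed, with log2 differences of -0.27 ± 0.30 for pregnancy in whole cervix, -0.71 ± 0.29 in depleted cervix, 0.74 ± 0.30 for whole against depleted D21 cervix and 0.30 ± 0.29 for NP cervix. Without D21 depleted rat 4 the pregnancy difference in depleted cervix was -1.03 and that of whole against depleted D21 cervix was 1.05, and both passed.

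The hyaluronidase Hyal1, a lysosomal enzyme that cuts the chain to small pieces, had the smallest p of the members for pregnancy in whole cervix. D21 whole cervix read -1.02, -1.13 and -0.53 and NP whole cervix read -3.43, -2.88 and -2.92, with no overlap. NP rat 8 was not well above background. Expression was 4.55-fold higher at D21 (log2 2.19 ± 0.46, adjusted p = 0.0231). The call held without any 1 of the 6 rats, and it was lost with normexp (1.31). Depleted cervix read -0.26, -2.10 and -1.16 in NP rats and -1.56, -2.10 and -0.66 in D21 rats. These overlapped (-0.27 ± 0.46, adjusted p = 0.771). In NP rats whole cervix was 3.74-fold lower than depleted cervix (log2 -1.90 ± 0.46, adjusted p = 0.00889), a call that was lost with normexp (-0.99) and by the methods' t-test. In D21 rats the difference was 0.55 ± 0.46 (adjusted p = 0.402). The change with removal thus differed between D21 and NP rats by 2.45 ± 0.66 (adjusted p = 0.0806), which passed the threshold of the methods, not the adjusted one, and with normexp neither (1.26). NP whole cervix was the group that stood apart, since the other 3 overlapped.

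Hyal2, a hyaluronidase anchored to the cell surface, moved less. It read 0.57, 1.34 and 1.20 in NP whole, 1.48, 1.44 and 1.53 in D21 whole, 1.58, 1.43 and 2.30 in NP depleted and 2.33, 2.83 and 1.76 in D21 depleted cervix. D21 whole cervix lay just above NP whole cervix without overlap, by 0.44 ± 0.33 (adjusted p = 0.455). Whole cervix lay below depleted cervix in both D21 rats (-0.82 ± 0.33, adjusted p = 0.0937) and NP rats (-0.73 ± 0.33, adjusted p = 0.113). None of these passed. Without D21 depleted rat 4, the difference in D21 rats was -1.10 and passed.

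The receptor Cd44, which anchors hyaluronan to cells, was lower in whole than in depleted cervix. The brightest of its 4 probes read 1.82, 0.73 and 1.80 in NP whole and 0.94, 1.72 and 0.96 in D21 whole cervix, against 3.52, 2.58 and 3.71 in NP depleted and 2.19, 2.75 and 2.84 in D21 depleted cervix. All 6 depleted arrays lay above all 6 whole arrays. Whole cervix was 3.53-fold lower in NP rats (log2 -1.82 ± 0.39, adjusted p = 0.00481) and 2.62-fold lower in D21 rats (-1.39 ± 0.40, adjusted p = 0.0311). The latter call was lost without D21 depleted rat 2 (-1.31) or 4 (-1.27) or D21 whole rat 5 (-1.26) or 7 (-1.27), and with normexp (-1.08). By the methods' t-test neither call of Cd44 passed. Pregnancy made no difference that passed in whole (-0.24 ± 0.40, adjusted p = 0.757) or depleted cervix (-0.67 ± 0.39, adjusted p = 0.337).

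The other 3 Cd44 probes, whose sequences are given above, did not follow it in D21 rats. For probe A_64_P280765, D21 depleted cervix read -0.08, -0.33 and 1.94, NP depleted cervix 2.65, 1.18 and 2.50, D21 whole cervix -0.12, 0.62 and -0.02 and NP whole cervix 0.51, -0.27 and 0.25. D21 depleted rats 1 and 2 lay within or under the range of whole cervix and rat 4 lay above it. In D21 rats, whole against depleted cervix was -0.35 ± 0.57 for A_64_P280765, -0.41 ± 0.55 for A_64_P130995 and 0.44 ± 0.96 for A_64_P130999, none of which passed. In NP rats the differences were -1.95 ± 0.57, -1.73 ± 0.55 and -1.55 ± 0.96, and the former 2 passed (adjusted p = 0.0232 and 0.0329). With the mean of the 4 probes, the D21 difference of Cd44 was -0.43 and the NP difference -1.76, and neither passed. Over the 12 arrays the 3 probes correlated with each other with r of 0.889 to 0.982 and with the brightest probe with r of 0.534 to 0.839, as a description of arrays that share 4 groups. The Cd44 result in D21 rats is thus that of 1 probe.

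**Figure D2:**
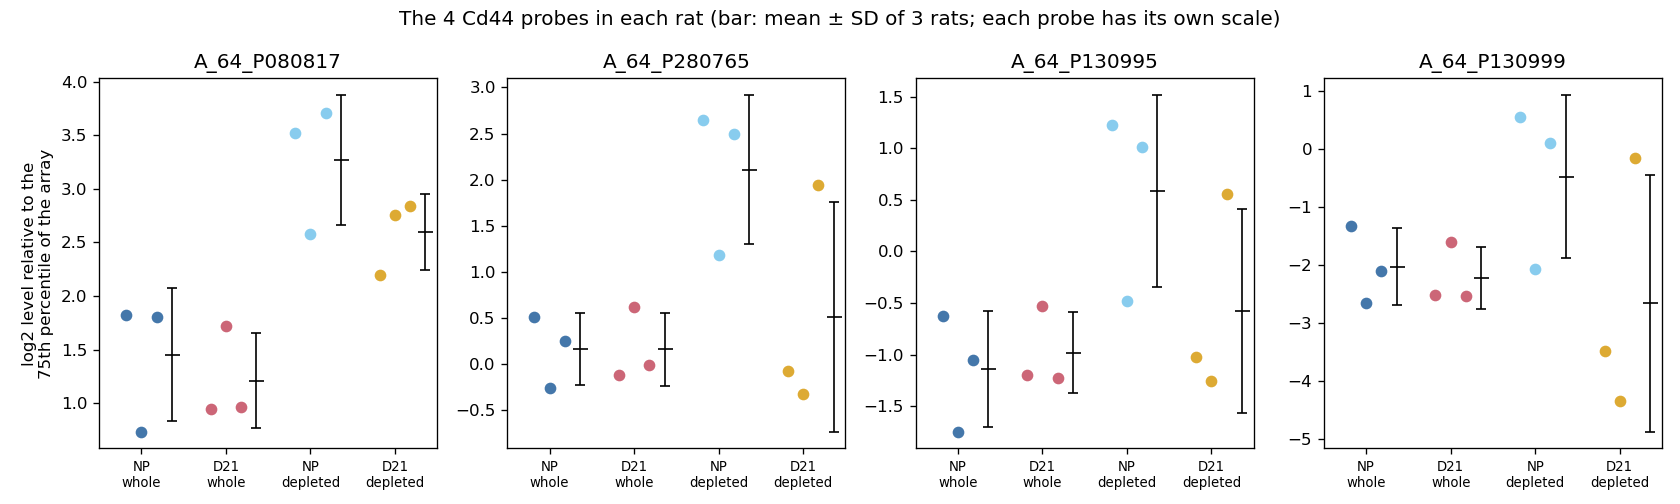
Level of the 4 Cd44 probes in each rat by group. The y axis is the log2 level over the array's 75th percentile, points are rats and bars are the mean ± SD of 3 rats. For the brightest probe, on the left, all depleted arrays lie above all whole arrays, while for the other 3 probes D21 depleted rats 1 and 2 lie within or under the range of whole cervix.

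Hmmr, a hyaluronan receptor that also sits on the mitotic spindle, read between -7.59 and -5.23 and gave no signal well above background on the 12 arrays, so no level or change can be given for it.

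Versican, the large proteoglycan that ties hyaluronan into the matrix, had the largest difference of the members. The brightest Vcan probe read 2.18, 0.69 and 1.40 in NP whole cervix, 1.30, 1.53 and 1.33 in D21 whole cervix and 0.31, 0.72 and 0.65 in D21 depleted cervix. In NP depleted cervix it read -3.60, -6.24 and -2.53, with rat 6 not well above background. NP whole cervix was 46.8-fold higher than NP depleted cervix (log2 5.55 ± 0.73, adjusted p = 0.000199). D21 depleted cervix was 25.8-fold higher than NP depleted cervix (4.69 ± 0.73, adjusted p = 0.00418). D21 whole cervix lay above D21 depleted cervix without overlap, by 0.82 ± 0.73 (adjusted p = 0.425), and D21 and NP whole cervix overlapped (-0.04 ± 0.73, adjusted p = 0.985). The change with Mφ removal differed between D21 and NP rats by -4.72 ± 1.04 (adjusted p = 0.0416). The sizes turned on 2 of the NP depleted rats. Without rat 6 the NP removal difference was 4.49, that between the depleted groups 3.63 and that of the changes -3.67 (without rat 7, 6.34, 5.48 and -5.52), and with normexp they were 3.74, 2.82 and -2.93. All of these passed in limma, but by the methods' t-test neither comparison with NP depleted cervix did. The second Vcan probe, shown above, read 1.25, -0.12 and -0.60 in NP whole, 0.81, 0.95 and 0.47 in D21 whole, 0.04, -0.05 and -0.02 in D21 depleted and -5.67, -7.15 and -4.73 in NP depleted cervix. None of the latter was well above background. The floored fold over NP depleted cervix was 24.1 for NP whole and 21.2 for D21 depleted cervix. The measured differences had adjusted p of 2.1e-05 and 0.000297. The direction in whole cervix was not settled. It was 0.57 ± 0.57 with the second probe, 0.27 with the mean of both, 0.10 with the slide as a block, and 0.34 and 0.01 without NP rat 8 and D21 rat 5.

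The fibroblast markers moved with Vcan. Their mean log2 level was 3.28 ± 0.21 in NP whole, 3.29 ± 0.23 in D21 whole, 1.96 ± 0.50 in D21 depleted and -0.73 ± 0.71 in NP depleted cervix (SD, n = 3). Of the 9 fibroblast markers tested in NP rats, 8 were higher in whole than in depleted cervix, where 13.6% of all genes were. Between the depleted groups 7 of 9 were higher at D21, where 5.45% of all genes were. In D21 rats 3 of 10 were higher in whole than in depleted cervix, as 10% of all genes were, while Vcan was not called. NP depleted rat 6 had the lowest level of the list (-1.55) and of both Vcan probes. The 3 genes whose levels followed Vcan most closely over the 12 arrays, among 13341 genes well above background on at least 9 arrays, were the collagen genes Col6a2 (r = 0.99) and Col1a1 (0.984) and the matrix protein gene Ccn5 (0.988), with arrays of 4 groups as the points. Smooth muscle markers moved with Vcan in part, with mean log2 levels of 4.76 ± 0.25 in NP whole, 3.92 ± 0.23 in D21 whole, 1.40 ± 0.57 in D21 depleted and 0.32 ± 0.30 in NP depleted cervix (SD, n = 3). All 10 were higher in whole than in depleted NP cervix, and 5 of 8 tested were higher in D21 than in NP depleted cervix. Of these markers, 7 of 10 were higher in whole than in depleted D21 cervix, where Vcan did not pass. In whole cervix 4 of 10 were lower at D21, and Vcan did not pass there either. The part of either cell type in the Vcan result was not tested.

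**Figure D3:**
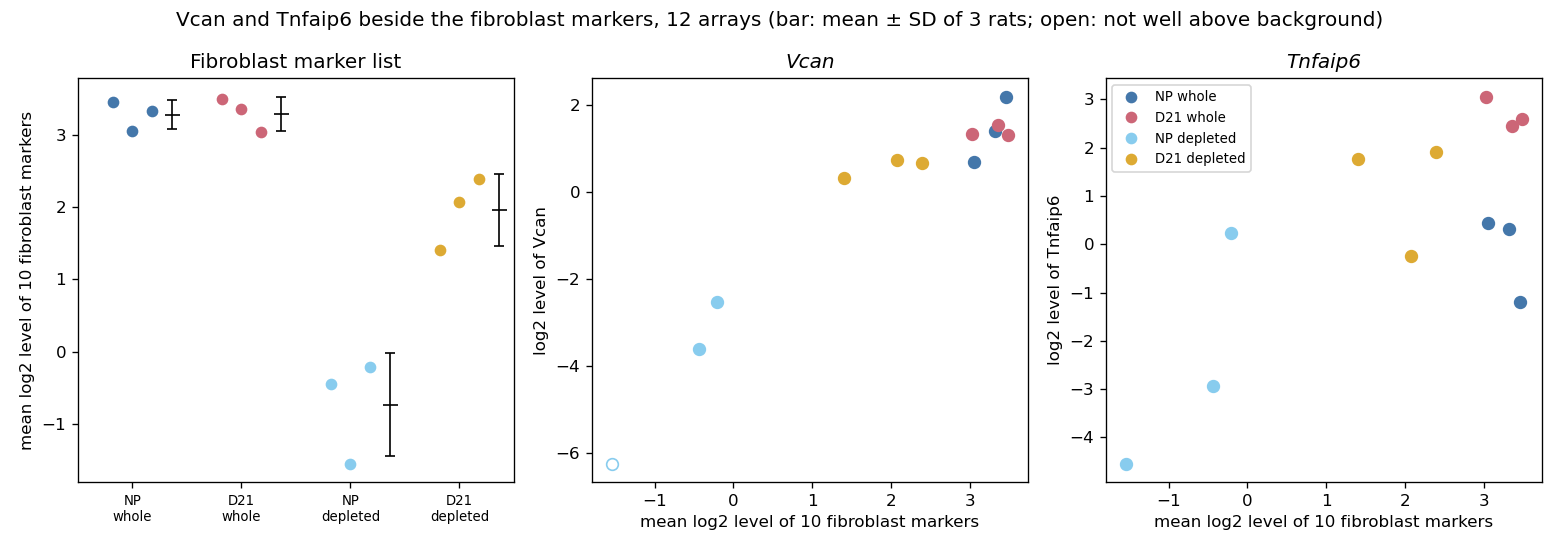
Vcan and Tnfaip6 beside the fibroblast markers. The left panel gives the mean log2 level of 10 fibroblast markers in each rat with the mean ± SD of 3 rats, and the other panels plot the log2 level of Vcan and of Tnfaip6 against it, with 1 point per array and the open point not well above background. The 3 NP depleted arrays are lowest for the markers, at -1.55 to -0.21, and for Vcan, while Tnfaip6 separates D21 from NP whole cervix at like marker levels.

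Tnfaip6, which moves heavy chains of a serum protein onto hyaluronan and so cross-links it, was well above background on all 12 arrays. It read 2.59, 2.45 and 3.05 in D21 whole cervix and -1.20, 0.44 and 0.32 in NP whole cervix, with no overlap. The log2 difference of 2.85 ± 1.01 (7.19-fold) missed the threshold (adjusted p = 0.122). It passed with array weights (3.01), with scan day as a block (2.85), with normexp (2.57) and in a fit of the 6 whole arrays alone. In depleted cervix it read 1.76, -0.24 and 1.92 in D21 rats and -2.95, -4.54 and 0.24 in NP rats. D21 was 11.8-fold higher (3.56 ± 1.00, adjusted p = 0.0719), although D21 rat 2 lay below NP rat 7. This call was lost without NP depleted rat 5 (3.30) or 6 (2.50) or D21 depleted rat 1 (3.25) or 4 (3.18), in a fit of the 6 depleted arrays alone and by the methods' t-test, and the difference was 4.89 without NP depleted rat 7. Whole against depleted cervix was 1.55 ± 1.01 in D21 rats, without overlap, and 2.27 ± 1.01 in NP rats (adjusted p = 0.273 and 0.105). Without NP depleted rat 7, the latter was 3.60 and passed.

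Read over all members, 2 of the 8 tested were called higher in D21 than in NP whole cervix (Has1 and Hyal1) and none lower, where 5.38% of all genes tested were called higher and 3.09% lower. At an adjusted p under 0.05 there was 1, Hyal1. For whole against depleted cervix of D21 rats, 1 of 8 was higher (Has2) and 1 lower (Cd44), where 10% and 7.71% of all genes were. In NP rats 1 of 7 was higher (Vcan) and 3 were lower (Has1, Hyal1 and Cd44), where 13.6% and 10.8% of all genes were, and these 4 had an adjusted p under 0.05. In depleted cervix 2 of 7 were higher at D21 (Vcan and Tnfaip6) and none lower, where 5.45% and 2.07% of all genes were. For the difference between D21 and NP rats in the change with removal, 1 of 8 was more positive in D21 rats (Hyal1) and 1 more negative (Vcan), where 2.44% and 5% of all genes were. The median log2 difference of the members tested was 0.70 for pregnancy in whole cervix against -0.08 for all genes, 0.54 against 0.02 in depleted cervix, 0.65 against -0.06 for whole over depleted D21 cervix, and -0.73 against -0.04 for NP cervix.

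**Figure D4:**
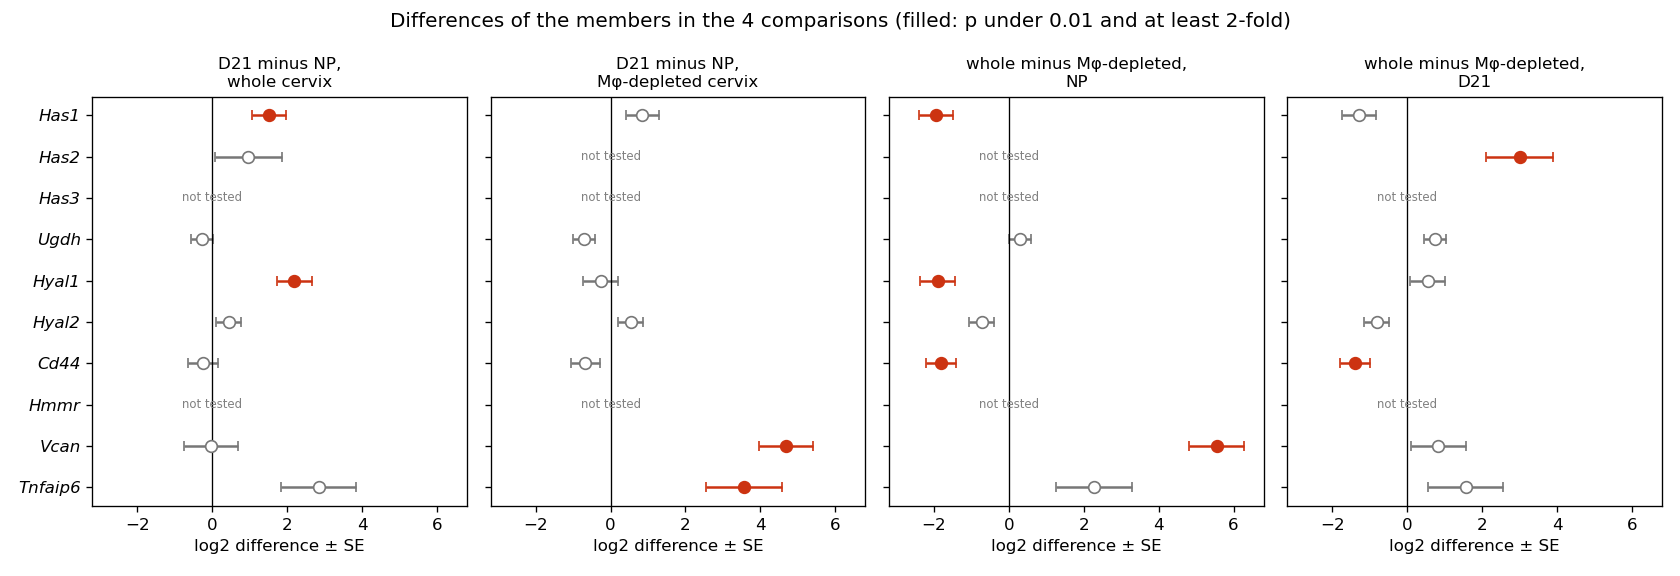
Log2 differences of the members in the 4 comparisons of groups. The x axis is the log2 difference of group means with its standard error from limma, and filled points passed the threshold of p under 0.01 and at least 2-fold. Has1 and Hyal1 lie above 0 for pregnancy in whole cervix and below 0 for whole against depleted NP cervix, and Vcan lies at 4.69 and 5.55 in the comparisons that use NP depleted cervix.

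Slides and scan days did not divide evenly over the groups. The D21 whole arrays shared a slide with NP whole rat 10, and against that rat alone they were higher by 1.39 for Has1, 2.03 for Hyal1 and 2.38 for Tnfaip6. All whole arrays were scanned on the same day, with D21 depleted rat 4 and NP depleted rat 7. Against these single arrays, whole cervix differed by 3.23 for Has2 and -1.64 for Cd44 in D21 rats, and by 3.96 for Vcan, -2.63 for Has1, -1.92 for Hyal1 and -2.26 for Cd44 in NP rats. D21 and NP depleted arrays on the same slide differed by 5.64 and 3.19 for Vcan and by 3.50 and 1.68 for Tnfaip6 on the respective slides. When slide or scan day entered the fit as a block, NP depletion differences were 5.33 and 5.09 for Vcan, -1.92 and -1.91 for Has1, -2.01 and -2.12 for Hyal1 and -1.89 and -1.96 for Cd44. For D21 against NP depleted cervix they were 4.64 and 4.61 for Vcan and 3.34 and 3.20 for Tnfaip6. All of these kept the direction given above. Differences that had missed the threshold turned sign within a batch for Tnfaip6 in whole against depleted NP cervix (-0.62 within a slide and -0.38 within a scan day), Has2 in whole cervix (-0.34) and Hyal1 in whole against depleted D21 cervix (-0.23). The same held within 1 slide for Has1 (-0.50), Hyal1 (0.49) and Hyal2 (-0.55) in D21 against NP depleted cervix. Pregnancy in whole cervix could be tested within the shared scan day, and in a fit of those 6 arrays alone Has1, Hyal1 and Tnfaip6 passed. No other slide or scan day held over 1 array of each group compared.

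The genes most like the other members were named by the same rule of likeness as for Vcan. For Has1 they were Clptm1l (r = 0.959), Metap1 (0.953) and Ddah1 (0.95), with Has1 well above background on 10 arrays. For Cd44 they were Dsp (0.98), Trim29 (0.978) and Pkp1 (0.978), of which Dsp, a desmosome protein, is also on the epithelial marker list. The epithelial list had a mean log2 level of 5.01 ± 0.27 in NP and 5.31 ± 0.13 in D21 depleted cervix, against 3.23 ± 0.16 and 4.16 ± 0.29 in whole cervix (SD, n = 3). Of its 10 markers, 7 were lower in whole than in depleted cervix of NP rats and 5 of D21 rats, the direction of Cd44. Of all genes 10.8% and 7.71% were. In whole cervix 6 were higher at D21, the direction of Has1 and Hyal1, where 5.38% of all genes were. These were Krt8, Krt18, Krt19, Epcam, Cdh1 and Cldn4. Krt14 (log2 -1.30), Tp63 (-0.46) and Dsp (-0.13) lay lower at D21 there, Krt5 (0.27) higher, and none of them was called. The immediate-early list had means of -1.03 ± 0.03 in NP whole, -0.46 ± 0.09 in D21 whole, 1.31 ± 0.26 in NP depleted and 2.14 ± 0.12 in D21 depleted cervix. That is the order of the brighter Has1 probe, not of the second one. The part of either list in the members' differences was not tested. Among the members, levels of Has1 and Hyal2 (r = 0.847) and of Vcan and Tnfaip6 (0.769) ran together over the arrays, and those of Ugdh and Hyal2 ran opposite (-0.787).

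Because the immediate-early list holds Fos, Jun and Atf3, whose proteins bind the motifs TGANTCA and TGACGTCA, the 250 bases before the start of each member were searched for these letters on both strands. RefSeq promoters were at hand for 8 of the 10 members. TGACGTCA was found before Has1, 83 bases from the start, and stands in 1.59% of all 33469 promoters. TGANTCA was found before Tnfaip6, 192 bases from the start, and stands in 6.34% of all promoters. The motifs do not overlap each other. A match is a description and does not show that a factor binds. The 30 bases around the match of Has1 and the stretch before Tnfaip6 follow, with the match in capitals.
Has1, GRCr8 chr1:67378509-67378538, minus strand: tcagacttgtcTGACGTCAgccctcctcca
Tnfaip6, GRCr8 chr3:56911148-56911397, plus strand: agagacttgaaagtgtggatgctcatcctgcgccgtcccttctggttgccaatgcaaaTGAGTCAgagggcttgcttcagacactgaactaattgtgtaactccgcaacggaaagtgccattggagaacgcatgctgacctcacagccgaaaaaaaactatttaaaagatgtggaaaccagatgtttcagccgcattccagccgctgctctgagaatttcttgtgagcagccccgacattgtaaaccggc

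The wider pathway was described with 52 further genes, of which 46 were on the array. In whole cervix 29 could be tested, and at D21 4 of them were higher and 1 lower, where 5.38% and 3.09% of all genes were. Those higher included Pgm1, which feeds glucose into UDP-sugars (log2 1.14 ± 0.21, adjusted p = 0.0139), and Gfpt1, which starts the path to the glucosamine donor (1.45 ± 0.38, adjusted p = 0.0476). The others were the Cd44 linker ezrin (Ezr, 1.64 ± 0.31, adjusted p = 0.0139) and the versican protease Adamts1 (1.45 ± 0.40, adjusted p = 0.0596), and the protease Adamts9 was lower (-1.32 ± 0.42, adjusted p = 0.0907). None of these groups overlapped. The calls of Pgm1 and Ezr held without any 1 rat. That of Gfpt1 was lost without NP rat 9 (1.05) or D21 rat 5 (1.40) or 7 (1.28), that of Adamts1 without NP rat 9 (0.97) or D21 rat 5 (1.40), 6 (1.47) or 7 (1.48), and that of Adamts9 without NP rat 8 (-1.09) or 10 (-1.26) or D21 rat 6 (-1.20) or 7 (-1.16). By the methods' t-test the calls of Ezr, Gfpt1, Adamts1 and Adamts9 were lost, and with normexp those of Pgm1, Gfpt1 and Adamts9. The Adamts1 call was also lost in a fit of only the arrays compared. The Adamts9 call was also lost with no filter on background, with slide as a block and with the authors' values. Of the 5 other breakdown genes tested, none passed.

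Among the receptors, Lyve1, a hyaluronan receptor of lymph vessels and some Mφs, was higher in whole than in depleted cervix of both D21 rats (27.6-fold, log2 4.78 ± 0.42, adjusted p = 6.71e-05) and NP rats (15.4-fold, 3.95 ± 0.42, adjusted p = 4.54e-05). It lay between 0.07 and 1.30 on the 6 whole arrays and between -4.82 and -2.96 on the 6 depleted ones, of which 2 in each group were well above background, and with normexp the differences were 2.17 and 2.57 and still passed. Of the 29 genes tested in D21 rats 4 were higher in whole cervix and none lower, where 10% and 7.71% of all genes were. Besides Lyve1 these were Gfpt2, moesin (Msn) and the sheddase Adam10. Gfpt2, a paralogue of Gfpt1, had a floored fold of 3.27 and a measured difference of 2.38 ± 0.42 (adjusted p = 0.00392). Msn differed by 2.04 ± 0.59 (adjusted p = 0.0326) and Adam10 by 3.32 ± 0.82 (adjusted p = 0.0186). The Msn call was lost without D21 depleted rat 1 (1.85) or 2 (1.54) or D21 whole rat 5 (1.93) or 6 (2.02), and the others held without any 1 rat. The size of the Adam10 difference turned on single rats, at 2.23 without D21 depleted rat 2 and 4.54 without rat 4. Adam10 was well above background on 2 of the 3 D21 depleted arrays, and its call was lost with normexp (1.06), in a fit of only the arrays compared and by the methods' t-test, as that of Gfpt2 was with normexp (0.27).

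Of the 5 versican proteases tested, 3 were higher in whole than in depleted NP cervix, as Vcan and 13.6% of all genes were. They were Adamts5 (12.2-fold, log2 3.61 ± 0.55, adjusted p = 0.000539), Adamts9 (11.2-fold, 3.48 ± 0.42, adjusted p = 0.000111) and Adamts15 (2.61-fold, 1.38 ± 0.24, adjusted p = 0.00128). Adamts5 was well above background on only 1 of the 3 NP depleted arrays, so its size there is uncertain. Adamts1 (0.05 ± 0.40) and Adamts4 (0.85 ± 0.54) did not pass. The same 3 were higher in D21 than in NP depleted cervix, by 2.08 ± 0.55, 1.62 ± 0.42 and 1.76 ± 0.24 (adjusted p = 0.0587, 0.0528 and 0.00221). Of all genes 5.45% were. With the mean of all its probes Adamts15 was called in neither comparison (0.91 and 0.77). With normexp the NP differences of Adamts5 and Adamts9 were 1.77 and 2.78 and still passed, and that of Adamts5 between the depleted groups was 1.15 and did not. The call of Adamts5 there was also lost with array weights (1.20) and without NP depleted rat 6 (1.81), and that of Adamts9 without that rat (1.23) or D21 depleted rat 2 (1.50). By the methods' t-test both of these calls between the depleted groups were lost. That of Adamts5 was lost in a fit of only the arrays compared as well. Without D21 depleted rat 4 the difference of Adamts5 was 1.37 and passed. The NP depleted arrays are shared by both comparisons. The change with removal differed between D21 and NP rats for Adamts9 (-2.94 ± 0.60, adjusted p = 0.0311) and Adamts15 (-1.16 ± 0.34, adjusted p = 0.108).

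In NP rats, whole cervix was called above depleted cervix for 6 of the 29 pathway genes tested and below it for 2, where 13.6% and 10.8% of all genes were. Beyond Lyve1 and the proteases, Itih3, a serum protein heavy chain that is linked to hyaluronan (2.66 ± 0.55, adjusted p = 0.00386; 2.01 without NP depleted rat 7), and Ugp2, which makes UDP-glucose (1.32 ± 0.34, adjusted p = 0.0123), were higher. The cell surface hyaluronidase Cemip2 (-1.55 ± 0.41, adjusted p = 0.0135) and Ezr (-1.05 ± 0.30, adjusted p = 0.0216) were lower. Ugp2 did not pass without NP depleted rat 5 (1.16) or 6 (1.09) or NP whole rat 8 (1.22), Cemip2 without NP depleted rat 7 (-1.48) or NP whole rat 9 (-0.97), and Ezr without NP depleted rat 5 or 7 or NP whole rat 8 or 10 (-1.03 to -0.79). By the methods' t-test none of Itih3, Ugp2, Cemip2 and Ezr passed in NP rats. Ugp2 also failed with scan day as a block, Cemip2 with array weights, and Cemip2 and Ezr in a fit of only the arrays compared. Ezr failed with normexp, with the percentile over detected probes and with no filter on background as well. In depleted cervix 5 of 26 were higher at D21 and none lower, where 5.45% and 2.07% of all genes were. With the proteases these were Itih3 (2.10 ± 0.55, adjusted p = 0.0567) and the protease Mmp14 (1.49 ± 0.46, adjusted p = 0.101). The call of Itih3 was lost without NP depleted rat 7 (1.45) or D21 depleted rat 2 (1.57), and that of Mmp14, whose groups overlapped, without NP depleted rat 5 (1.19) or 6 (1.55) or D21 depleted rat 1 (1.30) or 2 (1.09). Both calls were lost by the methods' t-test, with quantile normalization and in a fit of only the arrays compared. That of Mmp14 was also lost with normexp and with no filter on background. The median log2 difference of the pathway genes tested was 0.24 for pregnancy in whole cervix, 0.43 in depleted cervix, 0.55 for whole over depleted D21 cervix and 0.45 for NP cervix.

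**Figure D5:**
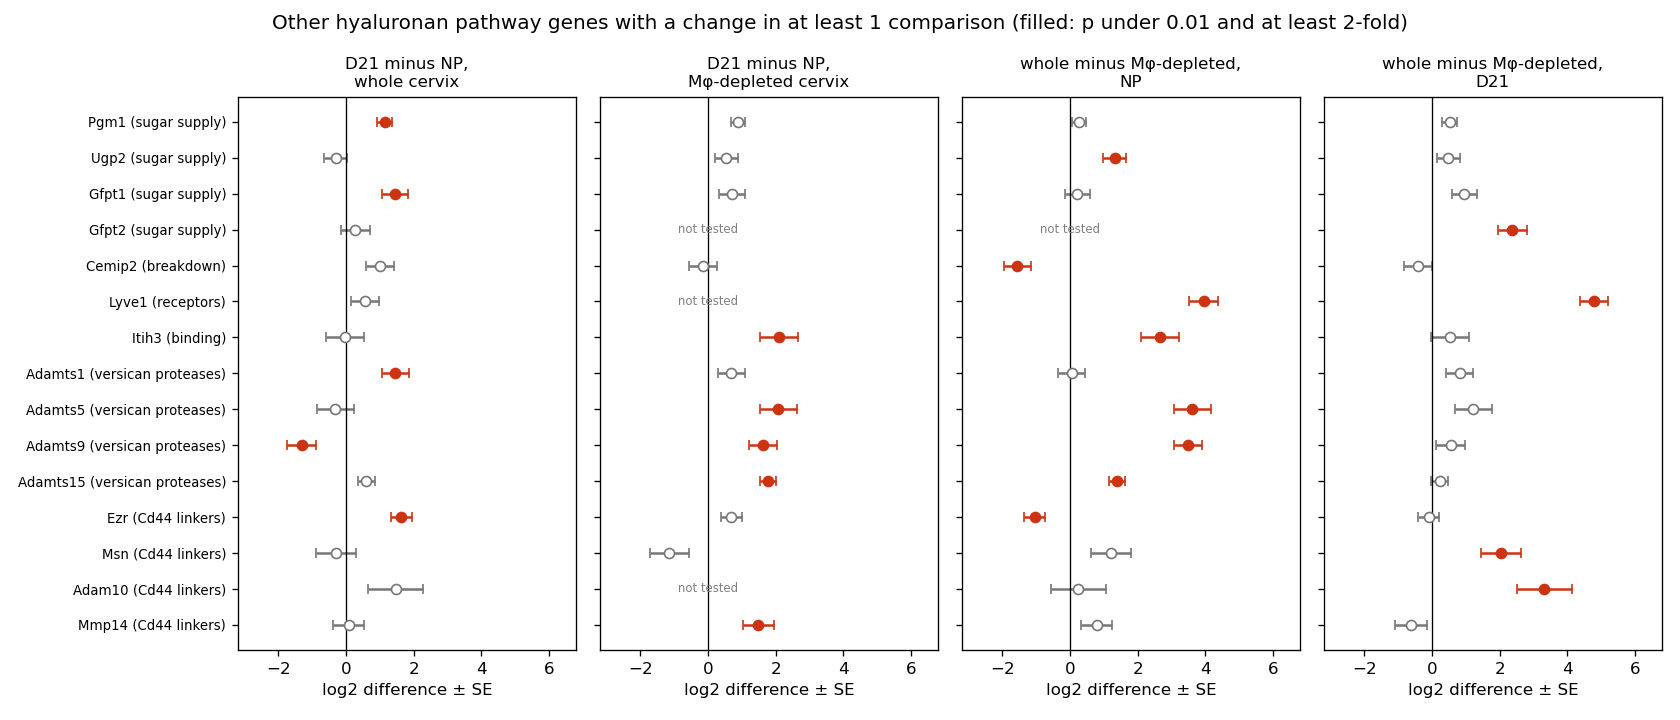
Log2 differences of the other pathway genes that passed the threshold in at least 1 comparison, with their function group in brackets. The x axis is the log2 difference of group means with its standard error from limma, filled points had p under 0.01 and at least 2-fold, and genes without a group above background are marked as not tested. Lyve1 stands highest for whole against depleted cervix, at 3.95 in NP and 4.78 in D21 rats.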

How the data were processed

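Dispersed cervix cells of 12 rats gave RNA for 1-colour Agilent arrays (rat, 4x44K v3). The authors deposited scanner intensity values, which Feature Extraction 9.5.3.1 had background-subtracted and detrended, with a surrogate for small values and nothing done between arrays. A second deposited table held ratio values, intensity over the array's 75th percentile at 2 decimals. On the log2 scale these matched the scanner values (r = 0.9999), and they served as an alternative. Groups came from the labels. The sequences of some probes are not reported here.

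Control spots and outlier flags (294 to 648 spots an array) were left out. The log2 75th percentile of each array, 289.8 to 1171 as intensity, was subtracted from log2 intensities. Probes took RefSeq symbols by accession (17328 of 30367 matched) or kept the name in the files, and the brightest probe stood for a gene. R 4.3.3 and limma 3.58.1 (lmFit, eBayes, a mean per group over all 12 arrays, no covariates) gave the tests, with Benjamini-Hochberg adjustment over all genes of a comparison. The procedure was tested on simulated data. The study's methods name a Welch test with the same threshold, called here the methods' t-test and kept as an alternative. The number of arrays limits the precision.

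All members are named with every probe; other genes are named where called in at least 1 comparison, with the 3 genes most correlated to Has1, Vcan and Cd44. The members, lists, rule and alternatives were chosen with earlier results of these data known. Alternatives were the methods' t-test, an adjusted threshold, normexp, quantile normalization, another percentile, other background filters, the mean of all probes or each probe alone, weights per array, a block for slide or for scan day, fits of only the arrays compared, the authors' values, and leaving out each rat. Of the marker lists, 7 of the 11 proliferation genes tested were lower at D21 in depleted cervix, where 2.07% of all genes were. None of these had an adjusted p under 0.05. No housekeeping gene of 8 was called in any comparison. In whole against depleted D21 cervix, 4 of 10 endothelial and 7 of 10 smooth muscle markers were higher, where 10% of all genes were. Python 3.11.15 with pandas 2.3.3 and matplotlib 3.10.9 searched promoters and drew plots.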

Additional observations from a re-analysis of the deposited data

Results flagged for a closer look

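For 4 genes the change with Mφ removal (whole minus depleted cervix, log2) differed between D21 and NP rats in a test of that difference in limma, at an unadjusted p under 0.01 and at least 2-fold. Of the 8 members tested, 1 was more positive in D21 rats and 1 more negative. Of the 30 pathway genes tested, none was more positive and 2 were more negative. Of all genes tested, 2.44% were more positive and 5% more negative. For Vcan the difference was -4.72 (adjusted p = 0.0416), from 0.82 in D21 rats and 5.55 in NP rats. For Hyal1 it was 2.45 (adjusted p = 0.0806), from 0.55 in D21 rats and -1.90 in NP rats. For Adamts9, a versican protease, it was -2.94 (adjusted p = 0.0311), from 0.55 in D21 rats and 3.48 in NP rats. For Adamts15, another such protease, it was -1.16 (adjusted p = 0.108), from 0.22 in D21 rats and 1.38 in NP rats, and this call was lost without any 1 of 8 of the 12 rats, with values of -1.22 to -0.96. Of the 10 fibroblast markers, 6 differed in the direction of Vcan, and their part in these differences was not tested.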

How the results depend on the processing

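For single members, 464 of 504 values under other settings and 244 of 276 with a rat left out kept their direction and side of the threshold. These include members that were not called in a comparison and stayed so, and are therefore not the share of calls that held. Calls were lost in 25 and 17 of these values. With each probe alone the brightest probe still stood for a gene, so that setting could not change a difference. For other pathway genes only calls were counted, and 268 of 323 and 115 of 156 were kept, while none turned. The numbers of members called were 2 (D21 against NP, whole cervix), 2 (whole against depleted, D21), 4 (whole against depleted, NP), 2 (D21 against NP, depleted cervix) and 2 (difference of the changes). In that order, the filter on every array compared left 0, 1, 1, 1 and 0, by testing fewer genes, and normexp gave 1, 0 and 2 in the former 3 and 1 in the last. The methods' t-test, run for the former 4, gave 1, 1, 0 and 0. The adjusted threshold gave 1 for each pregnancy comparison and 1 for the difference. The slide as a block gave 1 for pregnancy in whole cervix and 1 for D21 removal, scan day 1 and the mean of all probes 1 for D21 removal, and only the arrays compared 1 for depleted cervix. Leaving out a rat gave 1 to 2, 0 to 3, 4 to 5, 1 to 2 and 2.

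The numbers of pathway genes called were 5, 4, 8, 5 and 2. For the former 4 they were 2, 2, 4 and 1 by the methods' t-test. The adjusted threshold gave 3, 2 and 1 for pregnancy in whole cervix, in depleted cervix and the difference. Normexp gave 2, 2 and 3 for pregnancy in whole cervix, D21 removal and depleted cervix. The filter on every array gave 1, 4 and 3 for D21 removal, NP removal and depleted cervix. For depleted cervix, quantile normalization gave 3 and only the arrays compared 2. Array weights gave 8 for D21 removal. For the difference they gave 6, scan day 4, and the percentile over detected probes, no filter and the mean of all probes 1 each. Leaving out a rat gave 2 to 5, 3 to 9, 6 to 8, 2 to 7 and 1 to 5. The cause of these shifts was not tested.

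Uncalled values of members that turned sign were Vcan in whole cervix (0.27 with the mean of probes, 0.10 with the slide as a block, -0.40 to 0.34 without 1 rat), Has2 in whole cervix (-0.16 to 1.61 without 1 rat) and Hyal1 in depleted cervix (0.055 with normexp, -0.73 to 0.19 without 1 rat). For the difference of the changes these were Has1 (-0.19), Has2 (-0.66), Hyal2 (0.068) and Tnfaip6 (0.068) with normexp, and Hyal2 with quantile normalization (0.059) and the percentile over detected probes (0.043). Without 1 rat Hyal2 lay between -0.37 and 0.17 and Tnfaip6 between -2.04 and 0.35 there. Dim signals limit Has2, Has3 and Hmmr. No paired analysis was possible because each rat gave 1 array and the groups compared share no rat numbers.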
